A study of Mus musculus with 6 samples.

Results

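Messenger RNA of 27 genes of cholesterol and fatty acid synthesis was followed across 6 libraries of mouse leukaemia cells treated with Nutlin. The genes were chosen by symbol, as genes known to be driven by the SREBP transcription factors, and all 27 were found among the 49585 gene identifiers of the deposited count table. A filter on low counts kept 13744 genes for testing, and all 27 passed it. They are 7 enzymes of the mevalonate pathway, 8 enzymes of the sterol branch, 4 regulators and sterol carriers, 4 enzymes of fatty acid synthesis and 4 desaturases.

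The Gata2 KO group held 3 libraries of MA9 leukaemia labelled Gata2 -/- and carrying Cre in their sample names. The Gata2 f/f group held 3 libraries of MA9 leukaemia with floxed Gata2 alleles. MA9 is the usual short name of the MLL-AF9 fusion oncogene, and GATA2 is a zinc finger transcription factor needed by blood stem cells. Cells of both groups came from bone marrow, were grown with murine IL-3, IL-6 and SCF, and received 5 uM of Nutlin, an inhibitor of the binding of MDM2 to p53, for 18 h before poly(A) RNA was taken. No library without Nutlin was analysed here, so the values say nothing of the drug. Since Cre goes with the KO group, the deletion and Cre itself cannot be told apart. Each genotype has libraries numbered 1, 2 and 3, and the meaning of the numbers is not given in the sources used here.

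Cells make cholesterol from acetyl-CoA through the mevalonate pathway and then through a long sterol branch that runs from squalene to cholesterol. When sterol in the endoplasmic reticulum is low, SCAP carries the SREBP precursors to the Golgi for cleavage, and the released fragments switch on these enzymes. When sterol is plentiful, INSIG proteins hold SCAP back, and oxysterols activate the LXR receptors, which drive efflux and also raise Srebf1. SREBP-2 acts mainly on sterol genes and SREBP-1c mainly on fatty acid genes, and dividing blood cells use both products for membranes.

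The regulatory DNA in front of 7 of the genes is printed, a set chosen after the values were seen to show different patterns. Hmgcs1, Lss and Insig1 were highest in number 2 and lowest in number 3 in both genotypes. Mvk and Mvd were highest in the Gata2 KO library numbered 3. Fasn was highest in number 1, and Srebf2 had a different order in each genotype. The stretches come from RefSeq (GRCm38.p6), run 5′ to 3′ on the strand of the gene, end upstream of the start and avoid every GENCODE M21 exon. They lie at chr13:119690151-119690350 (plus strand) for Hmgcs1, chr5:114444069-114444268 (plus strand) for Mvk, chr8:122443423-122443622 (minus strand) for Mvd, chr10:76531388-76531587 (plus strand) for Lss, chr5:28071163-28071362 (plus strand) for Insig1, chr15:82147019-82147180 (plus strand) for Srebf2 and chr11:120824548-120824747 (minus strand) for Fasn. Capitals mark TCACNCCAC, a form of the sterol regulatory element, and CCAAT, the NF-Y motif, which reads ATTGG on the other strand.
Hmgcs1: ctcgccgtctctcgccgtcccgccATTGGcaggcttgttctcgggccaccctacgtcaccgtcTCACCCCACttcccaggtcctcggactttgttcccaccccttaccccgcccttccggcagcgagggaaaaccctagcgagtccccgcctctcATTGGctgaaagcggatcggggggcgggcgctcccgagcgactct
Mvk: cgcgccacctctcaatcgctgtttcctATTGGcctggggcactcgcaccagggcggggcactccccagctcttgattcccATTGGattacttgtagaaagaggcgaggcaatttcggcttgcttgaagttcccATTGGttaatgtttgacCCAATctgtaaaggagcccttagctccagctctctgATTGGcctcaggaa
Mvd: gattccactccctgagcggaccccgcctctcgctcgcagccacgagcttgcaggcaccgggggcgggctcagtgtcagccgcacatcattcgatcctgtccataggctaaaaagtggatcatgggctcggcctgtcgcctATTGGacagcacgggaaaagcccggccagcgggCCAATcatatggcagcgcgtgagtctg
Lss: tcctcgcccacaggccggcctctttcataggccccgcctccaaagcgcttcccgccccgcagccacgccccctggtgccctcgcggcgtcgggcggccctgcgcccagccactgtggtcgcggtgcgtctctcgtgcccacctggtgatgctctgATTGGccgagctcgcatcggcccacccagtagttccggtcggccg
Insig1: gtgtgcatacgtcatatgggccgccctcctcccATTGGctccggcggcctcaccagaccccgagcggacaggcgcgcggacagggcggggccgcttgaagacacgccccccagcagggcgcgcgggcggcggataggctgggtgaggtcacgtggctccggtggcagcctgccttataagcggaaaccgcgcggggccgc
Srebf2: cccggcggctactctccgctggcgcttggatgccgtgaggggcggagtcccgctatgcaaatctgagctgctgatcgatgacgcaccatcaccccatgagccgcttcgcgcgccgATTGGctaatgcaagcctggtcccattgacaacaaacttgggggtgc
Fasn: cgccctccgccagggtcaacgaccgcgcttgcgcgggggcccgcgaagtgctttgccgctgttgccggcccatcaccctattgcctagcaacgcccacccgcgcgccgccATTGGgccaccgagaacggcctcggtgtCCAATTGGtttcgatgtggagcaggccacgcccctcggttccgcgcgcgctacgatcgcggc
Matches were counted on both strands in windows of 250 bases before to 50 bases after the start, which the table held for 20 of the 27 genes. TCACNCCAC was found in 1 of the 20, Hmgcs1, at bases -137 to -129 from the start, against 1.44% of 26994 genes with a window. CCAAT was found in 16 of the 20, or 80.0%, against 41.0% of those genes. Mvk held 5 CCAAT matches and Fasn held 3, of which a pair overlap in CCAATTGG. The GC box GGGCGG was also found in 16 of the 20, against 38.2% of genes, and the E-box CACGTG in 3 of the 20 (Dhcr7, Insig1 and Sc5d), against 8.09%. These are exact letter matches (N is any base), so other forms of the sterol regulatory element were not counted. The matches were not tested as sites.

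Library totals ran between 18651102 and 26440960 counts in Gata2 KO and between 17138687 and 25158033 counts in Gata2 f/f. The least counted member, Fdps, still had at least 89 counts in every library. Gata2 had 5.44, 43.3 and 4.33 CPM (read counts scaled by library size) in Gata2 KO libraries 1, 2 and 3, against 33.6, 22.3 and 18.4 CPM in Gata2 f/f libraries 1, 2 and 3. Gata2 KO 1 and 3 lay below every Gata2 f/f library, but the library labelled Gata2 KO 2 held the highest Gata2 level of all 6. The part of Gata2 that was removed is not given in the sources used here, so counts over the whole gene are an incomplete check, and the genotype comparison is also given without that library. The libraries numbered 3 stood apart in both genotypes, and the 27 genes together took 0.437%, 0.468% and 0.223% of the counts in Gata2 KO 1, 2 and 3 and 0.409%, 0.515% and 0.303% in Gata2 f/f 1, 2 and 3. All CPM values here are scaled to library size with TMM factors.

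Per kilobase of exon, the highest mean levels over the 6 libraries were those of Acly (91.8 RPKM), Scd2 (86.6 RPKM) and Fasn (70.1 RPKM), which make cytosolic acetyl-CoA, monounsaturated fat and palmitate. Mvd (44.7 RPKM), Srebf2 (43.2 RPKM) and Insig1 (39.8 RPKM) came next. Scd1, the desaturase best known from liver and fat, stood at 3.12 RPKM, so Scd2 was the more abundant of the pair per length. Fdps was listed lowest at 1.55 RPKM. The Fdps value is uncertain, because 26.7% of its exon bases are shared on the same strand with the gene model Gm43738, which is listed at 0 in all 6 libraries, and 22.2% of its 90-base windows occur in transcripts of other genes. Acat2 (30.9% of windows), Acaca (24.9%), Idi1 (22.6%) and Fdft1 (19.6%) also share sequence with other genes, so their counts depend on how shared reads were assigned. Antisense transcripts overlap 12.1% of the exon bases of Hmgcs1 (Gm48342) and an unclassified opposite-strand gene 9.21% of those of Idi1 (Gm48574).

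**Figure D1:**
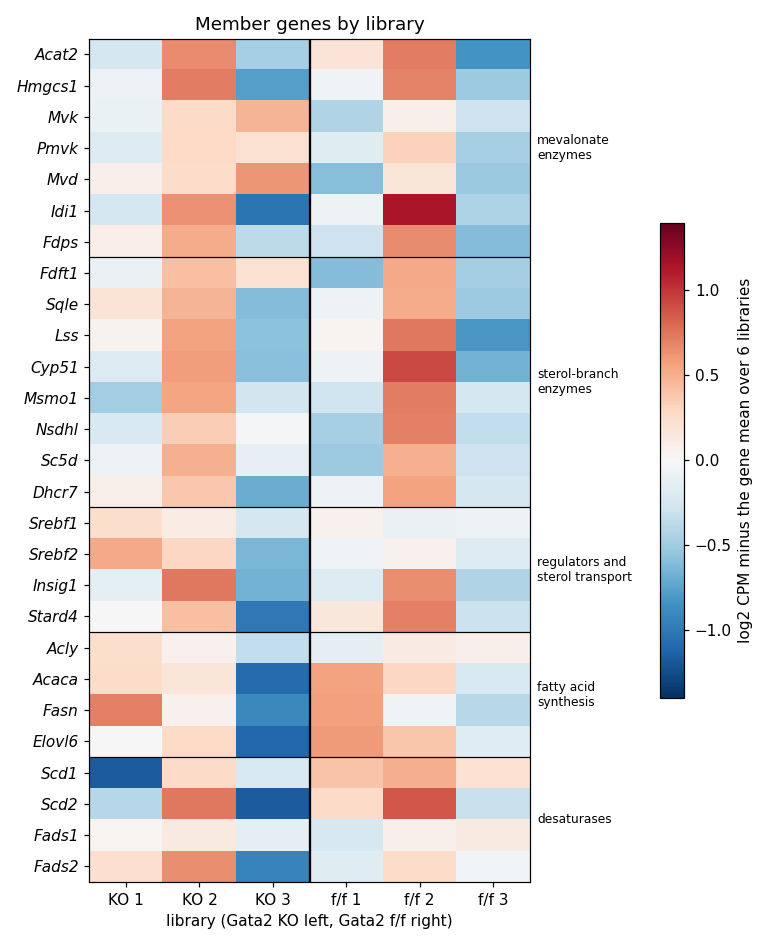
Heat map of the 27 genes (rows, grouped by role) in the 3 Gata2 KO libraries (left) and the 3 Gata2 f/f libraries (right). Colour is the log2 CPM of a gene in a library minus the mean of that gene over the 6 libraries. The sterol genes are red in both libraries numbered 2, most genes are blue in both numbered 3, and the KO and f/f sides look alike.

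The first question is whether loss of Gata2 went with another level of these genes. No member passed the test between Gata2 KO and Gata2 f/f, and across all tested genes edgeR's quasi-likelihood test with Benjamini-Hochberg adjustment called 0.00% (0 members called, adjusted p = 1.00 for each of the 27). At an unadjusted p under 0.05 the same fit had 0 members and 171 genes (1.24%), and DESeq2 called 7 genes (0.0509%) and 0 members. Of the 27 genes, 12 had a fold change above 0 and 15 below, with a median log2 fold change of -0.01 against 0.02 over all tested genes. The fold changes ran between -0.63 for Scd1 and 0.61 for Mvd, with a median SE of 0.43 among the mevalonate enzymes and 0.37 among the sterol-branch enzymes, and differences of this size did not pass the test at this spread. In no member did the 3 Gata2 KO values lie wholly above the Gata2 f/f values (2.64% of tested genes) or wholly below them (2.78%).

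Without the library labelled Gata2 KO 2 the median log2 fold change of the 27 genes was -0.27, with 7 above 0 and 20 below, and again 0 were called (edgeR adjusted p between 0.915 and 0.996). In that fit Scd2 stood at -1.09, Scd1 at -0.999, Idi1 at -0.963, Elovl6 at -0.755, Stard4 at -0.663, Hmgcs1 at -0.522, Acaca at -0.510 and Insig1 at -0.466. Lss stood at -0.358, Sqle at -0.206, Fasn at 0.0073, Srebf1 at 0.054, Srebf2 at 0.11, Fdft1 at 0.15, Mvk at 0.42 and Mvd at 0.63. Without Gata2 KO 3 the median was 0.11, so its sign rests on single libraries. Leaving out each of the 6 libraries in turn kept some members on 1 side of 0 at very different sizes. Below 0 were Scd2 (-1.09 to -0.066), Scd1 (-0.999 to -0.35), Stard4 (-0.663 to -0.018), Acaca (-0.583 to -0.052) and Elovl6 (-0.755 to -0.18). Above 0 were Mvd (0.42 to 0.89), Mvk (0.28 to 0.59) and Fdft1 (0.032 to 0.74). The genotype fits above did not pair the libraries by number. With the replicate number as a block, edgeR still called 0.00% of genes and 0 members. In that fit Mvd, Idi1, Elovl6 and Scd2 had an unadjusted p under 0.05, as did 10.7% of tested genes, and their lowest adjusted p was 0.431. DESeq2 with the block called 222 genes (1.62%, of which 1.31% of tested genes higher and 0.306% lower in Gata2 KO) and 0 members.

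Within a number, the log2 difference of Gata2 KO minus Gata2 f/f ranged over the members between -1.50 for Scd1 in number 1 and 1.12 for Mvd in number 3. Gata2 KO was the higher library for 16 of 27 genes within number 1, for 10 within number 2 and for 10 within number 3, against 52.6%, 54.1% and 49.7% of tested genes. Mvk, Mvd and Sc5d were higher in Gata2 KO within all 3 numbers, 3 of 27 against 20.7% of tested genes. Idi1, Msmo1, Stard4, Acaca, Elovl6, Scd1 and Scd2 were lower in Gata2 KO within all 3 numbers, 7 of 27 against 17.7%. Among the 8 fatty acid synthesis and desaturase genes Gata2 KO was higher for 4 within number 1, for 3 within number 2 and for 0 within number 3, where their median log2 difference was -0.68.

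The second comparison sets the libraries numbered 3 against those numbered 1 and 2, with genotype as a term. Here 25 of the 27 genes lay lower in number 3, with a median log2 fold change of -0.72 against -0.01 over all genes. edgeR called 6 members, all lower in number 3: Sqle, Lss, Stard4, Acaca, Fasn and Elovl6. The test called 18.0% of all genes, of which 6.63% of tested genes were lower and 11.4% higher. In 14 of 27 members both number 3 values lay below all 4 others (20.4% of tested genes), and in 0 members above them (21.1%). At an unadjusted p under 0.05 edgeR had 14 members and 34.8% of genes, and DESeq2 called 13 members lower, beside 26.2% of genes.

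The 6 calls depend on single libraries. Leaving out the library labelled Gata2 KO 2, or Gata2 KO 3, gave 0 members called, leaving out Gata2 f/f 3 gave 3, and leaving out Gata2 KO 1 gave 13. The median stayed below 0 each time, at -0.64 without Gata2 KO 2 and -0.61 without Gata2 KO 3. Number 3 was set apart with earlier results of these data known, so the test describes these libraries. In GRCm38 coordinates of GENCODE M21, Sqle lies at chr15:59315077-59331192 (plus strand), Lss at chr10:76531588-76557138 (plus strand), Acaca at chr11:84129672-84401651 (plus strand), Fasn at chr11:120805846-120824547 (minus strand) and Elovl6 at chr3:129532355-129638495 (plus strand).

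**Figure D2:**
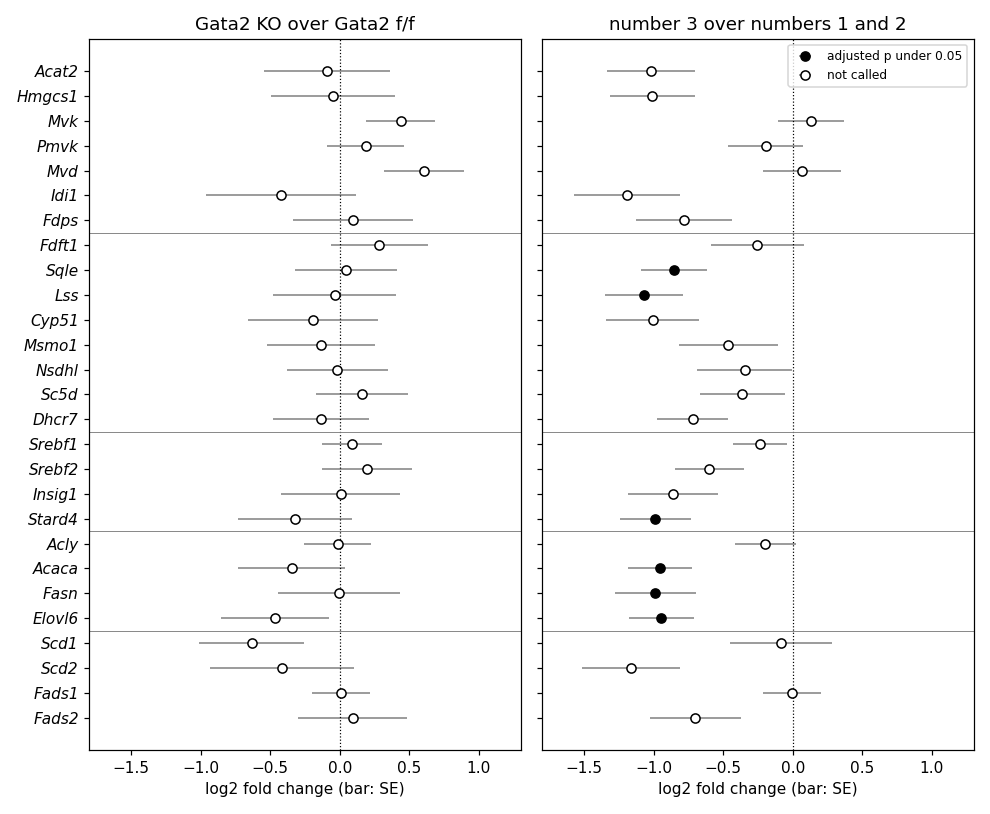
Log2 fold change of each of the 27 genes with its SE (bar), for Gata2 KO over Gata2 f/f (left) and for number 3 over numbers 1 and 2 (right). Filled circles mark an adjusted p under 0.05 in edgeR. The left panel holds no filled circle and spreads about 0, and in the right panel 25 of 27 genes lie below 0 and 6 are filled.

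None of the 7 mevalonate enzymes passed either test, and 5 of them lay lower in number 3. Hmgcs1, the HMG-CoA synthase, had 107, 186 and 66.7 CPM in Gata2 KO 1, 2 and 3, against 110, 184 and 79.6 CPM in Gata2 f/f 1, 2 and 3. Number 2 was highest and number 3 lowest in both genotypes. The means were 120 ± 60.9 CPM in Gata2 KO and 124 ± 53.8 CPM in Gata2 f/f (SD, n = 3 each), and the log2 fold change was -0.05 ± 0.45 (SE). For number 3 over numbers 1 and 2 it was -1.01 ± 0.31 with an adjusted p of 0.0516 in edgeR, just short of a call.

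Idi1, the isopentenyl diphosphate isomerase, kept the same order more steeply. It had 56.6, 105 and 32.9 CPM in Gata2 KO, against 63.5, 147 and 49.5 CPM in Gata2 f/f. The log2 fold change was -1.19 ± 0.38 for number 3 over numbers 1 and 2 (edgeR adjusted p = 0.0620), the lowest of the 27, and -0.42 ± 0.54 for Gata2 KO over Gata2 f/f. Acat2, which joins a pair of acetyl-CoA at the head of the pathway, ran likewise, between 32.1 and 94.1 CPM, with -1.02 ± 0.32 for number 3 (edgeR adjusted p = 0.0555). Acat3 and Tcp1 share sequence windows with Acat2. Acat3 had only 9 to 28 counts, and the counts of Tcp1 are not reported here.

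Mvk and Mvd, the mevalonate kinase and the decarboxylase later in the same pathway, were the 2 members not lower in number 3. That sign rested on single libraries. Without Gata2 KO 3 the log2 fold change for number 3 was -0.15 for Mvk and -0.37 for Mvd. Without Gata2 KO 1 it was -0.01 and -0.07. Mvd had 83.8, 95.3 and 122 CPM in Gata2 KO 1, 2 and 3, against 52.6, 89.4 and 55.7 CPM in Gata2 f/f 1, 2 and 3. Its highest value was Gata2 KO 3, the library in which Hmgcs1 and Idi1 were lowest, and the groups overlapped only through Gata2 f/f 2. The means were 100 ± 19.5 CPM in Gata2 KO and 65.9 ± 20.4 CPM in Gata2 f/f (SD, n = 3 each), with a log2 fold change of 0.61 ± 0.29 and an unadjusted p of 0.0691 in edgeR. For number 3 it was 0.07 ± 0.28.

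Mvk had 48.9, 62.4 and 72.5 CPM in Gata2 KO, against 38.7, 54.5 and 42.4 CPM in Gata2 f/f, again highest in Gata2 KO 3. The log2 fold change was 0.44 ± 0.25 for genotype and 0.13 ± 0.24 for number 3. Within numbers 1, 2 and 3 the log2 difference of Gata2 KO minus Gata2 f/f was 0.33, 0.19 and 0.77 for Mvk and 0.67, 0.09 and 1.12 for Mvd. Pmvk, the kinase between them, had a log2 fold change of 0.19 ± 0.28 for genotype and -0.20 ± 0.27 for number 3. Fdps, the farnesyl diphosphate synthase, had 0.09 ± 0.43 and -0.78 ± 0.35.

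In the sterol branch, number 2 was the highest library in both genotypes for all 8 enzymes, against 14.3% of tested genes. Sqle, the squalene epoxidase, had 159, 194 and 91.6 CPM in Gata2 KO, against 133, 201 and 98.1 CPM in Gata2 f/f. Number 3 lay below the rest in both genotypes. Sqle fell in number 3 with a log2 fold change of -0.85 ± 0.24 (edgeR adjusted p = 0.0390), to a mean of 94.9 CPM against 172 ± 31.8 CPM in the 4 others (SD). Between genotypes it was 0.04 ± 0.37.

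Lss, the lanosterol synthase that closes the sterol rings, had 69.7, 99.7 and 45.4 CPM in Gata2 KO, against 69.1, 113 and 38.4 CPM in Gata2 f/f. Number 3 was again lowest in both genotypes. Lss fell in number 3 by 1.07 ± 0.28 on the log2 scale (edgeR adjusted p = 0.0319), while the genotype fold change was -0.04 ± 0.44. Cyp51, the lanosterol demethylase, had 112, 191 and 84.7 CPM in Gata2 KO, against 122, 242 and 80.4 CPM in Gata2 f/f, the same order, with -1.01 ± 0.34 for number 3 (edgeR adjusted p = 0.0683).

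Msmo1, the methylsterol monooxygenase, separated number 2 alone. It had 77.8, 161 and 91.3 CPM in Gata2 KO, against 89.8, 179 and 92.3 CPM in Gata2 f/f, so that number 3 lay above number 1. Nsdhl, a sterol dehydrogenase, ran between 26.7 and 60.1 CPM, and Sc5d, a sterol desaturase, between 50.4 and 101 CPM, also with number 2 highest in both genotypes. Their log2 fold changes for number 3 were -0.35 ± 0.34 and -0.36 ± 0.31. Dhcr7, the last reductase before cholesterol, had -0.72 ± 0.25 for number 3 (edgeR adjusted p = 0.0808).

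Fdft1, the squalene synthase that opens the branch, had 55.8, 79.5 and 68.8 CPM in Gata2 KO, against 39.1, 86.0 and 42.5 CPM in Gata2 f/f. Its genotype fold change was 0.28 ± 0.35 and its number 3 fold change was -0.26 ± 0.33, both log2. On the opposite strand 774 of its exon bases (18.3%) overlap Ctsb, a lysosomal protease with 17317, 17118 and 91163 counts in Gata2 KO and 6951, 9073 and 64425 counts in Gata2 f/f. Ctsb is highest in number 3, and whether the counting used strand is not given in the sources used here, so the share of Ctsb reads in Fdft1 was not tested.

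**Figure D3:**
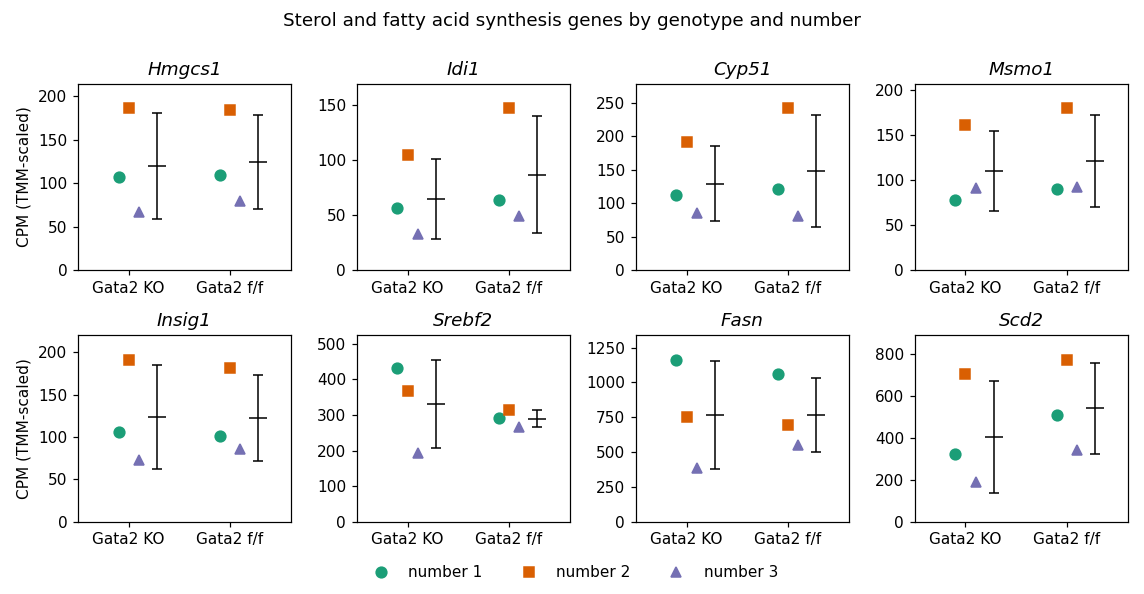
CPM of 8 genes in each library, Gata2 KO left and Gata2 f/f right in each panel. Symbols mark the number, the horizontal bar is the mean of 3 libraries and the error bar its SD. Hmgcs1, Idi1, Cyp51, Insig1 and Scd2 run number 2 over number 1 over number 3 in both genotypes, Msmo1 stands out in number 2 alone, Fasn runs number 1 over 2 over 3, and Srebf2 spreads widely only in Gata2 KO.

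Of the 4 regulators and carriers only Stard4 was called in number 3, and neither SREBP gene passed either test. Srebf2, which encodes SREBP-2, had 434, 369 and 193 CPM in Gata2 KO, against 291, 313 and 265 CPM in Gata2 f/f. The Gata2 KO values spread to both sides of the narrow Gata2 f/f range, with means of 332 ± 124 CPM in Gata2 KO and 290 ± 23.8 CPM in Gata2 f/f (SD, n = 3 each). The log2 fold change was 0.20 ± 0.32 for genotype and -0.60 ± 0.25 for number 3 (edgeR adjusted p = 0.121).

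Srebf1, which encodes the SREBP-1 isoforms, was among the steadiest members. It had 169, 153 and 120 CPM in Gata2 KO, against 148, 133 and 135 CPM in Gata2 f/f. Its log2 fold change was 0.09 ± 0.22 for genotype and -0.24 ± 0.20 for number 3 (edgeR adjusted p = 0.427). Counts over the whole gene do not separate the SREBP-1a and SREBP-1c transcripts.

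Insig1, the sterol-sensing anchor of SCAP and itself an SREBP target, had the order of Hmgcs1. It had 105, 191 and 73.0 CPM in Gata2 KO, against 101, 181 and 86.2 CPM in Gata2 f/f. The order was number 2, then 1, then 3 in both genotypes. The log2 fold change was 0.01 ± 0.43 for genotype and -0.86 ± 0.32 for number 3 (edgeR adjusted p = 0.0961).

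Stard4, which carries cholesterol between membranes, had 127, 170 and 63.6 CPM in Gata2 KO, against 141, 208 and 103 CPM in Gata2 f/f. Number 3 was lowest and number 2 highest in both. Stard4 fell in number 3 by 0.99 ± 0.25 on the log2 scale (edgeR adjusted p = 0.0309), and the genotype fold change was -0.32 ± 0.41.

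All 4 fatty acid synthesis genes lay lower in number 3, and 3 of them were called, beside 6.63% of tested genes called lower. Fasn, the fatty acid synthase, had 1164, 749 and 384 CPM in Gata2 KO, against 1063, 695 and 547 CPM in Gata2 f/f. The order here was number 1, then 2, then 3 in both genotypes, whereas 13 of the 15 sterol enzymes were highest in number 2 in both. Fasn fell in number 3 by 0.99 ± 0.29 on the log2 scale (edgeR adjusted p = 0.0488). The means were 766 ± 390 CPM in Gata2 KO and 769 ± 266 CPM in Gata2 f/f (SD, n = 3 each), with a fold change on the log2 scale of -0.01 ± 0.44.

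Acaca, the acetyl-CoA carboxylase that makes malonyl-CoA for Fasn, had 129, 122 and 51.1 CPM in Gata2 KO, against 159, 132 and 93.2 CPM in Gata2 f/f. It shared the order of Fasn. Acaca fell in number 3 by 0.95 ± 0.23 on the log2 scale (edgeR adjusted p = 0.0249), and its genotype fold change was -0.35 ± 0.39. The log2 difference of Gata2 KO minus Gata2 f/f was -0.30, -0.11 and -0.86 within numbers 1, 2 and 3, widest in number 3.

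Elovl6, which lengthens palmitate, had 49.0, 59.4 and 22.9 CPM in Gata2 KO, against 73.7, 64.3 and 43.5 CPM in Gata2 f/f. It too was lowest in number 3 and fell there by 0.94 ± 0.23 on the log2 scale (edgeR adjusted p = 0.0261). Its genotype fold change was -0.47 ± 0.39. Acly, the ATP citrate lyase that feeds both pathways, did not pass either test, with log2 fold changes of -0.01 ± 0.24 for genotype and -0.20 ± 0.22 for number 3.

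Both stearoyl-CoA desaturases had their lowest value in a Gata2 KO library. Scd2 had 322, 705 and 190 CPM in Gata2 KO, against 509, 774 and 342 CPM in Gata2 f/f. Each Gata2 KO library lay under its numbered partner, yet the groups overlapped widely. The log2 fold change was -0.42 ± 0.52 for genotype and -1.16 ± 0.35 for number 3 (edgeR adjusted p = 0.0511).

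Scd1 had 6.35, 17.2 and 12.3 CPM in Gata2 KO, against 18.8, 20.3 and 16.5 CPM in Gata2 f/f. Only the library labelled Gata2 KO 2 reached into the Gata2 f/f range, and Gata2 KO 1 was lowest. The log2 fold change was -0.63 ± 0.38 for genotype (unadjusted p = 0.133 in edgeR) and -0.999 without that library, with an adjusted p of 0.915. For number 3 it was -0.09 ± 0.37. Fads1 and Fads2, which desaturate polyunsaturated fatty acids, had genotype fold changes of 0.01 ± 0.21 and 0.09 ± 0.39, and Fads2 was lowest in Gata2 KO 3 at 26.3 CPM.

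A further comparison, of number 2 with number 1, was added after the values were seen. For all 15 enzymes of the mevalonate pathway and sterol branch both number 2 values lay above both number 1 values, as did 20 of the 27 members and 19.5% of tested genes. The median log2 fold change was 0.50 over the 27 genes, 0.60 without the library labelled Gata2 KO 2, and -0.06 over all genes. Msmo1 (1.02 ± 0.19) and Idi1 (1.05 ± 0.21) had fold changes near 1, and Fasn was the member with both number 2 values below number 1 (-0.63 ± 0.23), as for 24.8% of tested genes. edgeR called 0.00% of genes here, although 1101 genes, 12 of them members, had an unadjusted p under 0.05, and DESeq2 called 49 genes (0.357%), 2 of them members. The order number 2, then 1, then 3 held in both genotypes for 11 of 27 members against 7.34% of tested genes.

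Other genes of the pathway were read from lists that were chosen with earlier results known. Of 13 other sterol synthesis and uptake genes tested, 9 lay lower and 4 higher in number 3, with a median log2 fold change of -0.27. edgeR called 3 of them lower and 2 higher, beside 6.63% and 11.4% of tested genes. The 2 called higher were Npc1 and Npc2, which export cholesterol from lysosomes and were picked out after their values were seen. Npc1 had 144, 98.3 and 183 CPM in Gata2 KO, against 71.6, 61.8 and 195 CPM in Gata2 f/f, a rise in number 3 of 1.10 ± 0.27 on the log2 scale (edgeR adjusted p = 0.0246), and Npc2 rose by 1.01 ± 0.21. None of the 8 tested SREBP processing genes was called in number 3, and their median fold change was -0.04. Mbtps1, the site-1 protease, had the smallest p there (-0.48 ± 0.22, edgeR adjusted p = 0.156), followed by Sar1b, a GTPase of the COPII coat (0.36 ± 0.27).

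Of 24 other fatty acid genes tested, 15 lay higher and 9 lower in number 3, with a median of 0.19. edgeR called 2 of them higher and 2 lower, beside 11.4% and 6.63% of tested genes. Hacd2 and Elovl1, which elongate very long chains, rose by 1.02 ± 0.21 and 0.90 ± 0.19 on the log2 scale (edgeR adjusted p = 0.0144 and 0.0150). All 11 LXR target and sterol efflux genes lay higher in number 3, with a median log2 fold change of 1.34. edgeR called 8 of them, beside 11.4% of tested genes called higher. Lpl, the lipoprotein lipase, had 6.21, 4.34 and 91.6 CPM in Gata2 KO, against 4.11, 2.90 and 46.9 CPM in Gata2 f/f, a log2 fold change of 3.94 ± 0.25 (edgeR adjusted p = 0.000165). Smpdl3a, a phosphodiesterase, had 49.4, 28.8 and 155 CPM in Gata2 KO, against 16.7, 20.6 and 84.7 CPM in Gata2 f/f, and rose by 2.09 ± 0.24. Abcg1, a sterol exporter picked out after its values were seen, had 16.4, 9.82 and 41.1 CPM in Gata2 KO, against 6.67, 4.99 and 40.9 CPM in Gata2 f/f, and rose in number 3 by 2.26 ± 0.33 (edgeR adjusted p = 0.00343). Abca1, the other exporter, had 7.45, 18.8 and 14.1 CPM in Gata2 KO, against 4.39, 3.70 and 20.3 CPM in Gata2 f/f, and was not called (1.34 ± 0.54, edgeR adjusted p = 0.120).

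**Figure D4:**
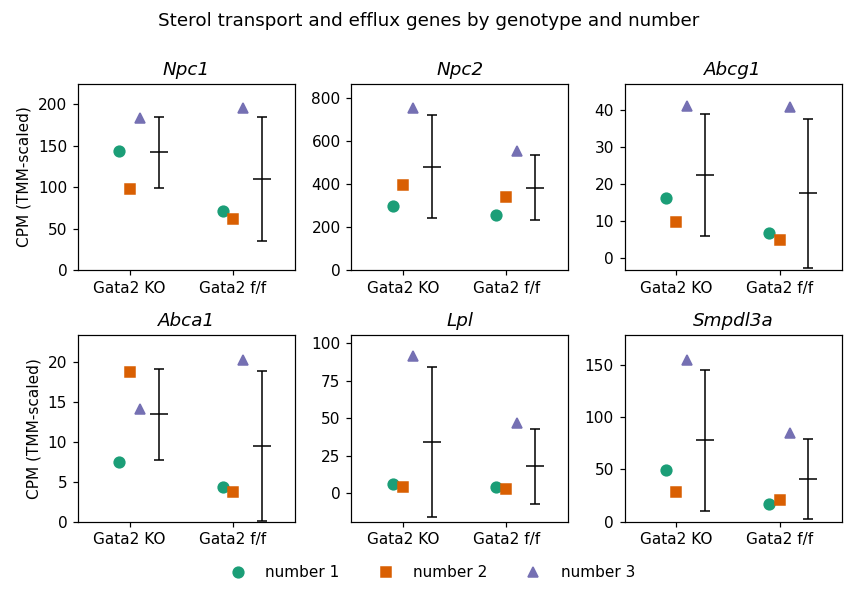
CPM of 6 sterol transport and efflux genes outside the 27 in each library, Gata2 KO left and Gata2 f/f right. Symbols mark the number, the horizontal bar is the mean of 3 libraries and the error bar its SD, which runs below 0 where 1 library dominates. Npc1, Npc2, Abcg1, Lpl and Smpdl3a are highest in number 3 in both genotypes, and Abca1 is highest there only in Gata2 f/f.

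Between genotypes DESeq2 with the replicate block called 1 gene of the sterol list lower in Gata2 KO, beside 0.306% of tested genes. It called 1 LXR gene higher, Smpdl3a (log2 fold change 0.95 ± 0.26), beside 1.31%. In the main edgeR fit 9 of the 11 LXR genes lay higher in Gata2 KO, with a median log2 fold change of 0.36 against 0.02 over all tested genes. That fit called 0.00% of tested genes, and so 0 genes of these lists. Among those of smallest p were Tm7sf2, a sterol reductase (log2 fold change 0.36 ± 0.37), among the sterol genes, Mbtps2 (-0.25 ± 0.26) and Rnf139 (-0.20 ± 0.23) among the processing genes, Acsl4 (-0.56 ± 0.26) and Hacd3 (-0.47 ± 0.23) among the fatty acid genes, and Nr1h2, which encodes LXR-beta (0.67 ± 0.41), and Mylip, which encodes a ubiquitin ligase (-0.41 ± 0.30), among the LXR genes.

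Other gene groups moved with number 3 beside these members. All 15 monocyte and macrophage markers lay above the other libraries in number 3, as did 21.1% of tested genes. edgeR called 14 of the 15 higher, beside 11.4% of tested genes. The markers summed to 8232 CPM in Gata2 KO 3 and 6221 CPM in Gata2 f/f 3. In the 4 libraries numbered 1 and 2 they summed to 1086 to 2475 CPM. Neutrophil markers summed to 3918 and 2087 CPM in number 3, against 297 to 1894 CPM. All 11 tested lay higher, and 5 were called, beside the same 11.4%. Proliferation genes summed to 1887 and 2994 CPM in number 3, against 4214 to 4403 CPM. All 12 lay lower, and 8 were called, beside 6.63% of tested genes called lower. The part of these gene groups in the lower sterol and fatty acid genes and the higher LXR genes of number 3 was not tested. In bulk RNA a different mix of cells and less RNA per cell cannot be told apart. Stromal and adipocyte markers summed to 34.9 and 29.7 CPM in number 3, against 12.1 to 18.9 CPM. Of 5 tested, 4 lay higher and 2 were called higher, beside 11.4% of tested genes. T and NK cell markers summed to 2.98 and 2.11 CPM in number 3, against 0.627 to 1.63 CPM, with Ncr1 and Klrb1c at 0. B cell markers summed to 18.7 to 41.7 CPM over the 6 libraries, with Pax5 at 0, and erythroid markers to 3.02 to 12.1 CPM. The share of counts in mitochondrial genes was 1.24% in both libraries numbered 3, against 0.399% to 0.975% in the others, and it was lowest in number 2 in both genotypes (0.556% in Gata2 KO and 0.399% in Gata2 f/f), where the sterol enzymes were mostly highest. The part of the mitochondrial share in these results was not tested. Between the numbers in which the sterol enzymes also differed, the monocyte list summed to 1935 CPM in Gata2 KO and 1196 CPM in Gata2 f/f in number 2, against 2475 and 1086 CPM in number 1. The proliferation genes summed to 4214 and 4390 CPM in number 2, against 4403 and 4398 CPM in number 1. The monocyte sum was higher in Gata2 KO than in Gata2 f/f in all 3 numbers. Between genotypes 13 of 15 monocyte and 10 of 11 neutrophil markers lay higher in Gata2 KO, beside 7220 of 13744 tested genes. Of the proliferation genes 11 of 12 lay lower. edgeR called 0.00% of genes between genotypes. DESeq2 with the replicate block called 3 monocyte and 6 neutrophil markers higher and 0 proliferation genes lower, beside 1.31% and 0.306% of tested genes.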

How the data were processed

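Poly(A) RNA of 6 Nutlin-treated samples was sequenced as paired reads of 90 bases, per the labels' protocols. The authors deposited whole-number counts per gene, not normalised. The tools kallisto, HTSeq, DESeq2 and the build mm10 appear in the submitters' processing notes without role or version. The annotation and the use of strand are not given in these sources. Of 49585 identifiers, 49326 matched GENCODE M21 without version, and the unmatched held 0.00962% of counts. Genes were filtered with filterByExpr (minimum count 10), which kept 13744, scaled by TMM and tested with edgeR 4.0.16 (quasi-likelihood, R 4.3.3), adjusted over all tested genes by Benjamini-Hochberg, with a threshold of 0.05. DESeq2 1.42.0 and limma 3.58.1 (voom) were alternatives, beside other scalings, filters and left-out libraries. The edgeR fits were also run on simulated counts with known fold changes. Each simulation changed only the comparison it was for, so the genotype fit was not checked with a difference between numbers present. RPKM was computed from CPM and exon length. Differences within a number are of log2(CPM + 0.5).

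The design text calls the 3 samples of a condition independent, without saying in what. Deviations from the group mean correlated between same-numbered libraries at r = 0.29, 0.55 and 0.65. Differently numbered libraries ran from -0.64 to 0.46, with 0.46 for Gata2 KO 2 and Gata2 f/f 1. The blocked fits and the differences within a number took the numbers to pair samples. That pairing is uncertain, since the 0.46 lay above the 0.29 of the libraries numbered 1. The labels state no pairing, so the main genotype fit was unpaired. The genes and lists were chosen with earlier results of these data known. Named in full are 9 fixed members (Srebf2, Srebf1, Insig1, Hmgcs1, Sqle, Fasn, Acaca, Scd1 and Scd2), every member called, the 3 of largest fold change in each direction, and the 2 pathway genes of smallest p per list and comparison with Abca1. Some genes of the pathway lists are not reported here. Values given for other members are in short form.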

Additional observations from a re-analysis of the deposited data

How the results depend on the processing

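The limits are 3 libraries per genotype, an unknown meaning of the numbers and the Gata2 level of the library labelled Gata2 KO 2. Between genotypes 0 members were called under any alternative, and 67 of 432 alternative fold changes of single members changed sign. For number 3, 311 of 378 kept direction and call, 25 lost the call, 26 gained it and 16 changed sign. The cause of these changes was not tested. The 6 calls of number 3 held in 9 to 11 of 14 alternatives each.

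Counts moved as follows. Between genotypes DESeq2 called 7 genes, DESeq2 with the replicate block 222 (180 higher, 42 lower) and edgeR with the replicate block 0. For number 3, edgeR called 2476 genes and 6 members, 3873 and 14 with no filter, 723 and 0 at a threshold of 0.01, 2 members without the genotype term and 13 members by DESeq2. Leaving out 1 library gave 612 to 3659 genes and 0 to 13 members. For number 2 against number 1, DESeq2 called 49 genes and 2 members, and leaving out 1 library gave 0 to 18 genes.

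Genotype fold changes (log2) turned sign for Insig1 and Fads1 with RLE factors (-0.013, -0.0093), DESeq2 (-0.013, -0.0096) and upper-quartile scaling (-0.026, -0.013). With no filter Sqle, Insig1 and Fads1 stood at -0.014, -0.047 and -0.048. The replicate block gave Lss 0.026, Nsdhl 0.067, Insig1 -0.031 and Fads2 -0.027, voom gave 0.025, 0.060, -0.033 and -0.042, and DESeq2 with the block gave 0.0061, 0.047, -0.051 and -0.046, with Fads1 -0.0050. Without both libraries numbered 3, Pmvk, Acly and Fasn stood at -0.066, 0.12 and 0.089. The block changed no call of a member.

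Leaving out 1 library, genotype fold changes ranged over 0 for Acat2 (-0.52 to 0.31), Hmgcs1 (-0.52 to 0.35), Sqle (-0.21 to 0.36), Msmo1 (-0.52 to 0.27), Nsdhl (-0.27 to 0.46), Srebf1 (-0.039 to 0.19), Srebf2 (-0.062 to 0.44), Fads1 (-0.13 to 0.056), Fdps (-0.19 to 0.56), Sc5d (-0.078 to 0.52), Insig1 (-0.47 to 0.40), Fasn (-0.45 to 0.29), Fads2 (-0.27 to 0.41), Lss (-0.39 to 0.42), Cyp51 (-0.60 to 0.36), Dhcr7 (-0.38 to 0.15), Acly (-0.17 to 0.11), Idi1 (-0.96 to 0.20) and Pmvk (-0.020 to 0.43). For number 3 they did for Mvk (-0.15 to 0.40), Mvd (-0.37 to 0.46), Scd1 (-0.37 to 0.26), Fads1 (-0.19 to 0.18), Acly (-0.47 to 0.066), Fdft1 (-0.58 to 0.057) and Pmvk (-0.59 to 0.17). Fads1 also stood at 0.0059 with a mean CPM of at least 1 and at 0.015 with upper-quartile scaling.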
